A study of Homo sapiens with 14 samples.

Results

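The human genes whose symbols are ZNF followed by a number form a large naming series of zinc finger genes. The genes described here are those ZNF symbols that reached at least 2 RPKM in the control RNA-seq library. RPKM values are reads divided by transcript length and library size, so that values can be compared between genes. By this rule 153 genes were chosen out of 503 ZNF symbols (30.4%) and out of 21574 genes in the table. At the same threshold 9578 genes of all kinds were kept, and these serve as the background throughout. Since the control RNA-seq value chose the genes, that value, its ratio to KD and its ratio to Ribo-seq are given as descriptions without a test.

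The study asked how silencing of ADAR1, the main enzyme that deaminates adenosine to inosine in double-stranded RNA, alters RNA structure, abundance and ribosome occupancy. Cells labelled HepG2, a line from a human liver carcinoma, received either scrambled siRNA (control) or siADAR1 (KD), and the siRNA is the only named difference between the groups. RNA-seq was done once per condition, Ribo-seq, which sequences the fragments covered by ribosomes, in 2 libraries per condition, and PARS-seq in 2 replicates per condition. In PARS-seq, refolded poly-A RNA was cut in vitro either by S1 nuclease, which prefers unpaired bases, or by RNase V1, which prefers paired bases, giving 8 of the 14 libraries. The study calls its replicates biological, but neither it nor the labels say that they came from separate cultures, so that p-values measure the spread between these libraries only, which may be technical.

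C2H2 zinc finger proteins carry tandem fingers, each of which folds around a zinc ion held by a pair of cysteines and a pair of histidines, and neighbouring fingers are joined by a conserved linker with the residues TGEKP. Many of them also carry a KRAB domain, which recruits the corepressor KAP1 (TRIM28) and through it the histone methyltransferase SETDB1, and they are best known for silencing retroelements. Others carry a SCAN domain, which pairs proteins with each other, and some proteins with a ZNF symbol act on RNA or ribosomes rather than on DNA.

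ADAR, the target of the siRNA, was at 54.8 RPKM in control and 15.4 in KD RNA-seq. In Ribo-seq it was at 43.6 in control and 8.73 in KD in replicate 1, but at 55.5 and 44 in replicate 2, where the difference was much smaller. The label of the cell line was checked against hepatocyte genes. Of 8 measured (ALB, AFP, APOA1, APOB, TTR, SERPINA1, TF and FGB), 6 were listed at 0 in control RNA-seq, the highest, APOA1, was at 0.0821 RPKM, and all were at 0 in the 4 Ribo-seq libraries. A listed 0 need not mean absence, since DAXX was at 0 in the RNA-seq and Ribo-seq columns and between 25.6 and 37.5 RPKM in PARS-seq. In PARS-seq, however, none of the 8 genes exceeded 0.0367 RPKM. These liver transcripts were therefore at or near 0 in each assay, and the cells are called by their label only. Of the stromal markers COL1A1 was at 54.7 RPKM in control and 40.4 in KD RNA-seq, while COL1A2 was at 0.122 and 0.0122. PDGFRB was at 2.35 and 1.30 in RNA-seq, and at 1.23 and 2.74 in control against 0.498 and 0.946 in KD Ribo-seq. In PARS-seq it was at 1.56 and 0.934 in control against 0.561 and 0.340 in KD. The summed RNA-seq level of these 3 stromal markers was 57.2 RPKM in control and 41.7 in KD, and all 3 were lower in KD in both PARS-seq replicates. The leukocyte markers reached at most 0.313 RPKM in control RNA-seq and the endothelial markers at most 0.517. What part the identity of the cells or these markers play in any value below was not tested.

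The depth behind the ZNF values was very uneven. Whole reads could be recovered from the RPKM values, with inferred library totals of 40729941 in control and 30209865 in KD RNA-seq, but of only 995682 and 3322918 in the Ribo-seq control libraries and of 1404542 and 2405072 in the KD libraries. The median ZNF gene had 888 and 688 reads in RNA-seq. In Ribo-seq it had 10 and 47 reads in the control libraries and 15 and 32 in the KD libraries, and 72, 5, 48 and 13 of the 153 genes had fewer than 10 reads in these libraries in the same order. As far as counting error goes, a single ZNF gene can therefore be compared closely in RNA-seq and only coarsely in Ribo-seq. With 1 RNA-seq library per condition, the spread between libraries is not known.

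Zinc finger genes share stretches of coding sequence, and the deposited values keep uniquely aligned reads only, so that a read lying wholly inside a shared stretch may not be counted. Among 149 genes with a coding sequence in GENCODE (GRCh37), 93 had at least 1 run of 30 bases that also occurs in another gene, with a median of 0.381% of the coding sequence in such runs against 0% over all genes at 2 RPKM or more. The 32 genes with a KRAB-like match had a median of 2.32%. The most shared run of each of 5 genes is given here, all in coding exons of GRCh37. These 5 are examples only. Other genes had runs found in more genes, such as a CAG repeat of ZNF384 in 52. Runs of ZNF394 and ZNF496 were found in 14 and 13, and none of these 3 holds the linker in frame. Among equally shared runs of a gene, one with the linker in frame was preferred. Capitals mark the codons for the linker TGEKP, where they lie in frame.
ZNF483, chr9:114304928-114304957, plus strand: aattcatACTGGAGAGAAACCCtataaatg
ZNF768, chr16:30536594-30536623, minus strand: cagcgcatccacACCGGTGAGAAGCCCtac
ZNF672, chr1:249142375-249142404, plus strand: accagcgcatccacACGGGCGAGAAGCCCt
ZNF787, chr19:56600093-56600122, minus strand: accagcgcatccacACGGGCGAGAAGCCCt
ZNF764, chr16:30569339-30569368, minus strand: gcgcagagggccctgtaccgggacgtgatg
The run of ZNF483 occurred in 11 genes, counting this one and either strand, and that of ZNF768 in 5. ZNF672 and ZNF787, which lie on different chromosomes, carry the same run, found in 4 genes. The run of ZNF764 lies in its KRAB-like match and occurred in 4 genes.

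Of the 153 genes, 152 were matched to GENCODE and 141 had at least 1 C2H2 finger by pattern, with a median of 7 and at most 36 fingers over those with a coding sequence. The pattern was not found in 6 genes, ZNF703, ZNF259, ZNF330, ZNF503, ZNF839 and ZNF185. In 2 more, ZNF274 and ZNF187, the lifted coding sequence is out of frame, so that their fingers could not be counted. A KRAB-like match was found in 32, a SCAN domain without such a match in 11, neither in 106, and 4 had no coding sequence. The pattern for KRAB is strict and misses divergent domains, and the SCAN genes were listed by name, which left 6 genes now named ZSCAN or ZKSCAN under neither. The largest shares lay on chromosomes 19 and 16, with 35 genes on chromosome 19 (22.9%, against 6.97% of all genes at 2 RPKM or more) and 23 on chromosome 16 (15.0% against 5.34%). The other genes were spread over many chromosomes.

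Levels in control RNA-seq were mostly low. The median was 6.80 RPKM, against 13.2 over all genes at the threshold, 97 of the 153 genes stayed under 10 RPKM, and 23 reached 20. KRAB-like genes had a median of 5.0 RPKM and genes with neither domain 7.23. Just above the threshold lay ZNF34 at 2.08, ZNF770 at 2.13 and ZNF12 at 2.18 RPKM, and just below it ZNF33A at 1.94, ZNF295 at 1.89 and ZNF35 at 1.89.

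None of the 10 most abundant genes had a KRAB-like match, and some of the best known members among them work on ribosomes. ZNF622, which acts in the maturation of the large ribosomal subunit, was at 71.1 RPKM in control and 69.8 in KD RNA-seq. In Ribo-seq it was at 62.9 and 19 in the control libraries and 58.5 and 35.4 in the KD libraries, so that the groups overlapped. ZNF593, which is linked to the same pathway, was at 73.9 in control and 92.9 in KD RNA-seq. ZNF598, the ubiquitin ligase that marks collided ribosomes, was at 64.9 in control and 88.5 in KD RNA-seq, while its Ribo-seq values were 15.7 and 27.0 in control against 13.6 and 19.3 in KD. Its Ribo-seq groups overlapped as well, in the opposite order to RNA-seq.

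ZNF787 was the most abundant gene, at 84.2 RPKM in control and 121 in KD RNA-seq, with Ribo-seq at 16.7 and 25 in control against 13.3 and 21.8 in KD. ZNF358 was at 67.3 and 90.7 in RNA-seq, ZNF580 at 54.7 and 76.7, and ZNF768 at 46.5 and 58.1. All of these were higher in the single KD library than in the single control library. ZNF703, a corepressor of the NLZ family that is amplified in breast cancer, was at 44.3 and 55.5 in RNA-seq, but at only 1.22 and 1.12 in control against 1.02 and 1.03 in KD PARS-seq. ZNF511 was at 43.0 and 41.2 and ZNF672 at 42.2 and 46.9 in RNA-seq.

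**Figure D1:**
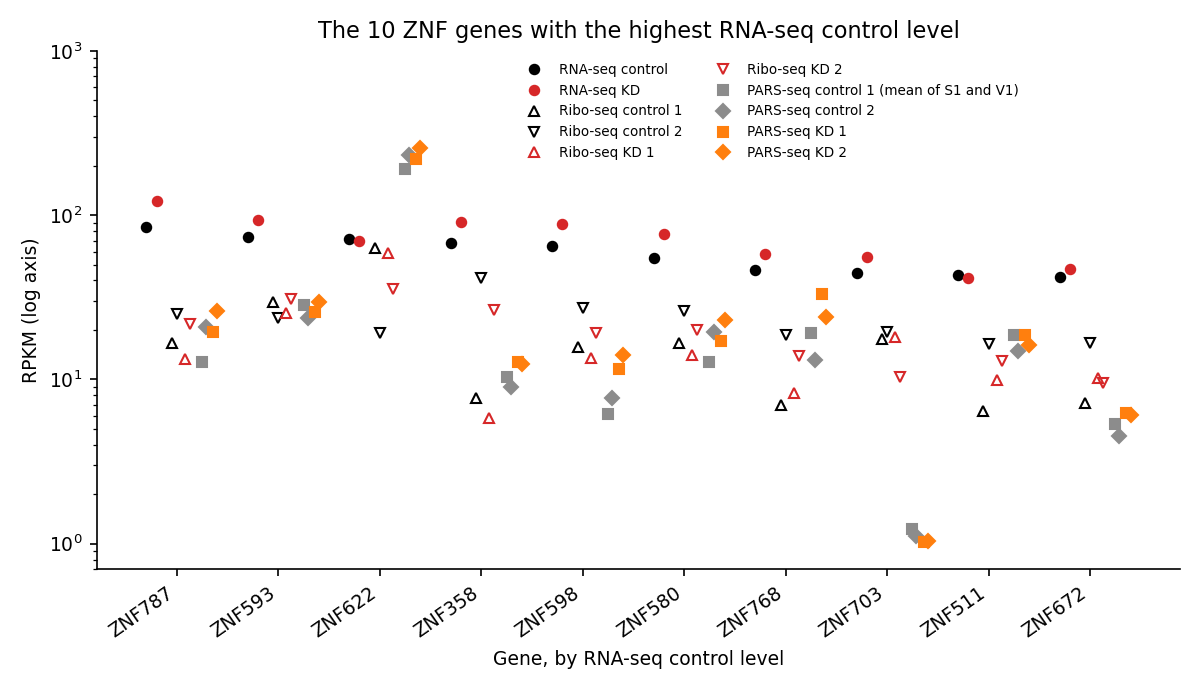
RPKM (log axis) of the 10 ZNF genes with the highest control RNA-seq level in each deposited column, where black and grey are control, red and orange are KD, and PARS-seq points are the authors' means of an S1 and a V1 library. PARS-seq of ZNF622 lies between 190 and 258 RPKM while that of ZNF703 lies between 1.02 and 1.22, although both are between 44.3 and 71.1 RPKM in control RNA-seq.

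PARS-seq ranked the ZNF genes differently from RNA-seq. Across the 153 genes, Spearman's rho between RNA-seq and PARS-seq in control was 0.247 in replicate 1 and 0.277 in replicate 2, against 0.605 and 0.624 over the 9578 genes. The points share libraries and the unit, and PARS-seq replicates ranked the ZNF genes alike, with rho of 0.972. Between RNA-seq and Ribo-seq rho was 0.582 and 0.794, against 0.716 and 0.828 over all genes, and between the Ribo-seq control libraries it was 0.675, against 0.782. The highest ratio of PARS-seq to RNA-seq in control was that of ZNF483, at 5.82 RPKM in RNA-seq and at 106 and 176 in PARS-seq (log2 ratios of 3.98 and 4.70). The lowest was that of ZNF703, with log2 ratios of −4.35 and −4.42. ZNF638, a large nuclear RNA-binding protein that takes part in silencing of retroviral DNA, was at 2.57 in RNA-seq and at 15.4 and 17.5 in PARS-seq. The log2 ratio of PARS-seq to RNA-seq in control had a median of −0.81 and −0.71 in the replicates, against −0.32 in both over all genes.

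Ribosome occupancy per transcript was described by the log2 ratio of Ribo-seq to RNA-seq, with 1 added to each RPKM value, which pulls ratios of low genes towards 0. In control, the median over the ZNF genes was −1.12 in replicate 1 and −0.71 in replicate 2, and that of all genes −0.53 and −0.72. In KD the medians were −1.10 and −0.82, against −0.51 and −0.59. The ratio was under 0 in 131 of 153 genes (85.6%) in control replicate 1 and in 135 (88.2%) in control replicate 2, while over all genes it was under 0 in 65.5% and 79.0%. KRAB-like genes had control medians of −1.06 and −0.67 and genes with neither domain −1.13 and −0.71.

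The highest control ratio belonged to ZNF770, a zinc finger protein of 10 fingers by pattern. It was at 2.13 RPKM in control RNA-seq, just inside the threshold, and at 12.7 and 6.96 in control Ribo-seq, which gives log2 ratios of 2.13 and 1.35. ZNF638 followed with 11 and 5.46 RPKM in Ribo-seq and ratios of 1.75 and 0.85. Both genes had more Ribo-seq than RNA-seq signal in each control library. ZNF8, a KRAB-like gene, had ratios of 1.11 and 0.70, ZNF639 of 0.43 and 0.92, and ZNF24, a SCAN protein without a KRAB domain, of 0.68 and 0.41. These 5 genes had between 2.13 and 4.11 RPKM in control RNA-seq. At the low end, ZNF205 was at 16.9 RPKM in control RNA-seq and at 1.42 and 4.14 in control Ribo-seq, with ratios of −2.89 and −1.80. ZNF444, a SCAN protein, had ratios of −2.54 and −1.69, ZNF513 of −3.02 and −1.46, ZNF787 of −2.27 and −1.71, and ZNF219 of −3.16 and −1.26. These low 5 genes had between 14.0 and 84.2 RPKM in control RNA-seq.

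Across 149 genes, Spearman's rho between the control ratio and the GC content of the coding sequence was −0.67 in replicate 1 and −0.464 in replicate 2, and over all genes it was −0.715 and −0.522. The rho with the number of fingers was 0.074 and 0.246, and with the share of the coding sequence in runs shared with other genes 0.0599 and −0.0182. These are descriptions across genes, which are not independent and share libraries. The log2 ratio of PARS-seq to RNA-seq in control had a rho with coding GC of −0.84 and −0.816 in the replicates, against −0.755 and −0.731 over all genes. For the log2 ratios of KD to control described further on, the rho with coding GC was 0.442 in RNA-seq (0.224 over all genes), 0.152 and 0.307 in PARS-seq (0.127 and 0.226), and −0.0775 and −0.622 in Ribo-seq (−0.0464 and −0.531). The part of base composition in any of these ratios was not tested. The median coding GC was 55.8% over the ZNF genes and 53.8% over all genes.

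**Figure D2:**
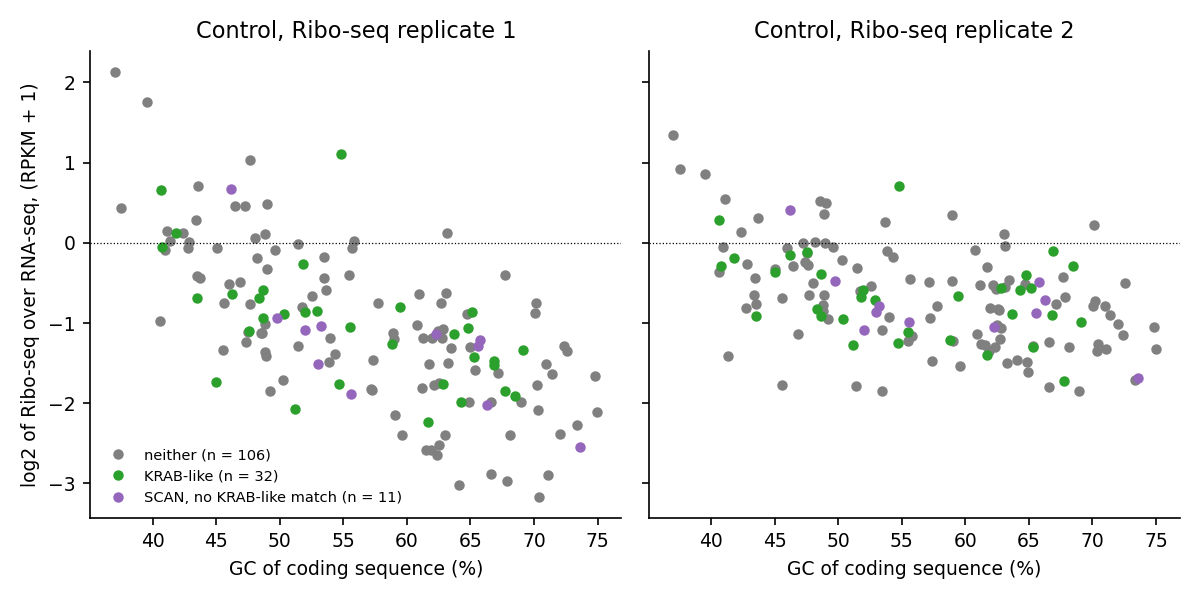
Log2 ratio of Ribo-seq to RNA-seq in control (RPKM with 1 added) against the GC percent of the coding sequence, each point 1 ZNF gene coloured by domain class, with Ribo-seq replicate 1 on the left and replicate 2 on the right. The ratio is lower at higher GC in both replicates, with a wider fall in replicate 1, and the classes lie on top of each other.

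For ADAR1 silencing, RNA-seq comes first. The log2 ratio of KD to control, with 1 added to each RPKM, had a median of 0.08 over the ZNF genes and −0.02 over all genes, and 96 of 153 genes (62.7%) were higher in KD against 46.6% of all genes. On this scale, at least 1.5-fold higher were 5 genes (3.27%, background 3.7%), and none was at least 1.5-fold lower (background 5.08%). Without the added 1, a setting chosen after seeing the data, these numbers were 9 (5.88%, 4.84% over all genes) and 3 (1.96%, 7.1% over all genes), so that they depend on it. The 3 lower ones were ZNF550 (3.78 in control and 2.19 in KD), ZNF134 (2.98 and 1.78) and ZNF778 (2.33 and 1.45 RPKM). The 5 higher genes with the 1 added were ZNF579 (31.4 in control and 52.6 in KD), ZNF865 (15.9 and 30.5), ZNF385A (10.6 and 18.0), ZNF48 (4.06 and 7.70) and ZNF618 (2.62 and 4.54 RPKM). ZNF385A binds RNA and is a partner of p53. With 1 library per condition these values have no replicate check, and in bulk RNA fewer cells of a kind and less RNA per cell cannot be told apart.

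The deposited PARS-seq columns hold the authors' mean of an S1 and a V1 library. In them the median log2 ratio of KD to control was 0.21 in replicate 1 and 0.18 in replicate 2, against 0.02 and 0.05 over all genes. In both replicates 117 of 153 genes (76.5%) were higher in KD, and 109 (71.2%) were higher in both at once, where the background was 44.7%. Lower in both were 28 genes (18.3%, background 37.3%). The share that was higher in both was 78.1% of the 32 KRAB-like genes, 81.8% of the 11 listed SCAN genes (13 of 17 with the 6 renamed genes added) and 68.9% of the 106 genes with neither. With each replicate set against the median of all genes, a check chosen after seeing the data, it was 68.0% against 41.2%. Since the columns are means, no test was made. On the scale with 1 RPKM added, at least 1.5-fold higher in both replicates were 12 genes (7.84%, background 5.66%) and at least 1.5-fold lower 2 genes (1.31%, background 6.18%). Both KD values lay above both control values in 74 genes (48.4%, background 32.9%) and below them in 22 (14.4%, background 28%).

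The highest PARS-seq differences belonged to ZNF764, a KRAB zinc finger protein on chromosome 16. It was at 9.83 and 26.0 RPKM in control against at 28.3 and 50.5 in KD, so that the KD values lay above both control values. Its RNA-seq values were 6.98 and 8.15. ZNF48 was at 0.461 and 0.703 in control against 1.56 and 2.14 in KD, and ZNF598 at 6.18 and 7.71 in control against 11.6 and 14.1 in KD. The values of both did not overlap between conditions. ZNF768 was at 19.1 and 13.2 in control against 32.9 and 24.1 in KD, and ZNF496, a SCAN protein, at 1.35 and 1.13 in control against 3.43 and 2.55 in KD. All 5 were also higher in KD RNA-seq, ZNF764 by a log2 ratio of 0.20 only.

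The lowest belonged to ZNF483, at 106 and 176 in control against 43.6 and 53.1 in KD PARS-seq, with RNA-seq at 5.82 and 4.44. ZNF323, now named ZSCAN31, was at 11.6 and 10.9 in control against 5.41 and 5.44 in KD. Both were at least 1.5-fold lower in both replicates. ZNF395 was at 6.24 and 7.12 in control against 4.33 and 4.01 in KD, and ZNF746, known as PARIS and a repressor of the gene of the coactivator PGC-1α, at 3.55 and 4.65 in control against 2.53 and 2.93 in KD. ZNF410, an activator of the chromatin remodeller gene CHD4, was at 16 and 12.7 in control against 9.43 and 9.77 in KD. The genes of both paragraphs were picked for their difference, so that their lack of overlap is no result of its own.

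**Figure D3:**
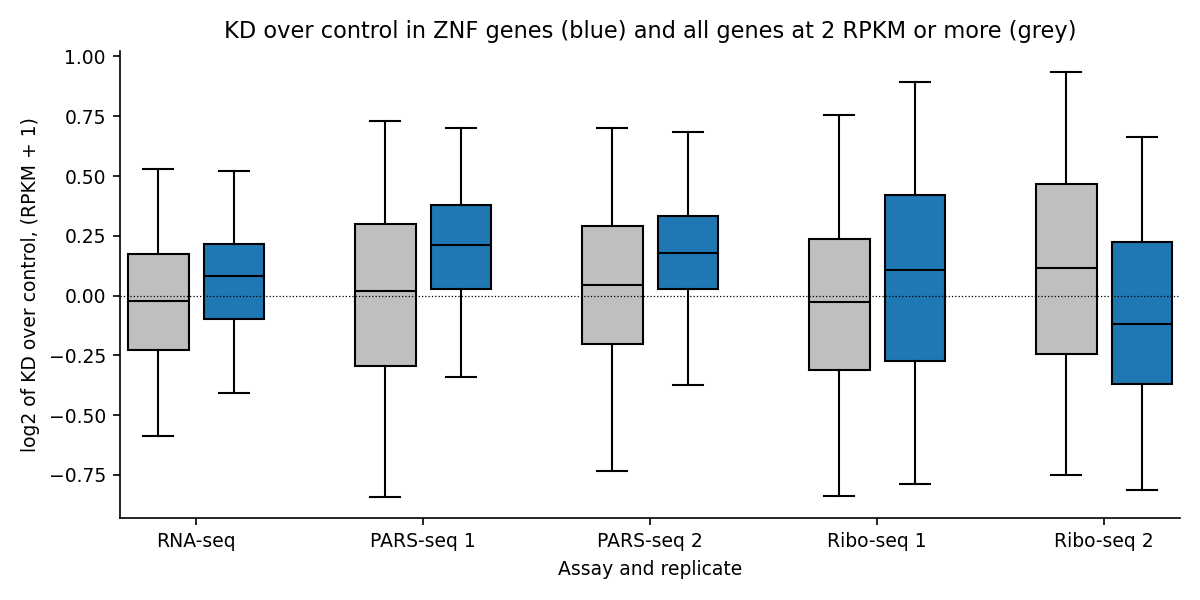
Log2 of KD over control (RPKM with 1 added) in each assay and replicate for the 153 ZNF genes (blue) and all 9578 genes at 2 RPKM or more (grey), with boxes from the lower to the upper quartile, a line at the median and whiskers from the 5th to the 95th percentile. The ZNF boxes overlap the grey ones but are shifted upwards in both PARS-seq replicates, with medians of 0.21 and 0.18 against 0.02 and 0.05. The Ribo-seq medians of the ZNF genes are 0.11 and −0.12.

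Ribo-seq, which the choice of genes did not use, has a deposited column for each library, so that it could be tested. The median log2 ratio of KD to control was 0.11 in replicate 1 and −0.12 in replicate 2, against −0.03 and 0.12 over all genes. The ZNF median thus lay above that of all genes in one pair and below it in the other. Higher in both pairs were 22.9% of the genes (background 29.6%) and lower in both 22.9% (background 23.8%). On the same scale at least 1.5-fold higher in both were 1.31% (background 1.97%) and at least 1.5-fold lower 0.654% (background 2.07%). Both KD values lay above both control values in 17 genes (11.1%, background 9.49%) and below them in 9 (5.88%, background 8.04%). Across the 153 genes the ratios of both pairs had a Spearman's rho of −0.0365, whereas those of the PARS-seq replicates had 0.808.

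**Figure D4:**
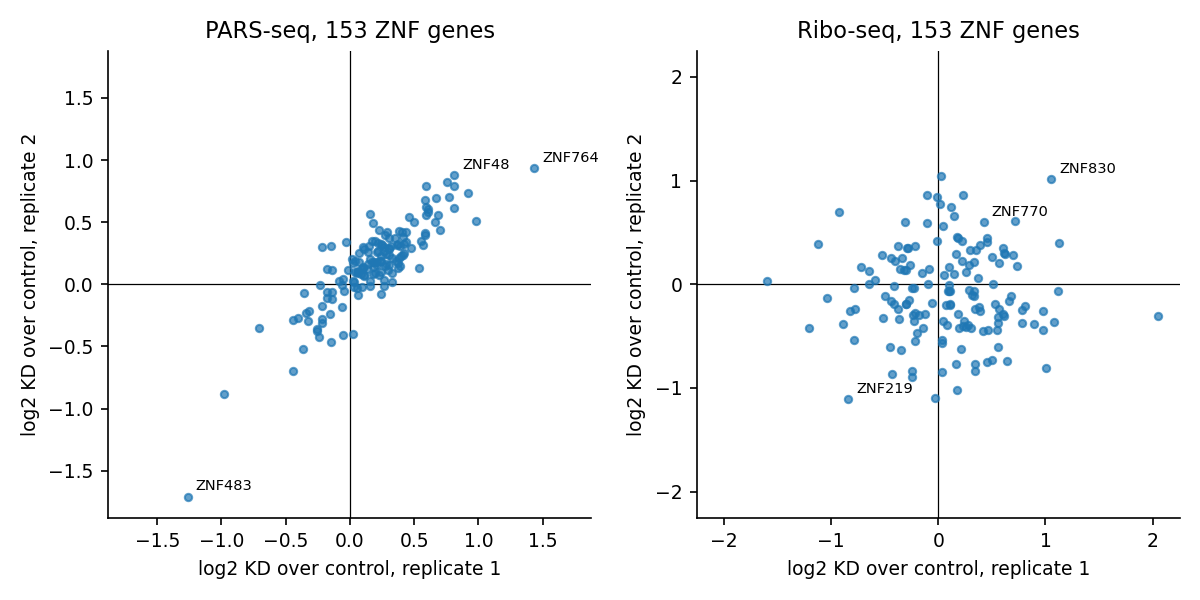
Log2 of KD over control (RPKM with 1 added) in replicate 2 against replicate 1 for the 153 ZNF genes, in PARS-seq on the left and Ribo-seq on the right. PARS-seq points lie along the diagonal with rho of 0.808, and Ribo-seq points form a round cloud with rho of −0.0365.

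In limma with Benjamini-Hochberg adjustment over 10882 genes, 0 genes were called in Ribo-seq (background 0%), and 43 of all genes had an unadjusted p under 0.05. Of the ZNF genes 145 passed the filter on low values, 8 did not, 0 were called, and 0 had an unadjusted p under 0.05. On the recovered reads, limma voom called 0 genes as well, with 29 genes at an unadjusted p under 0.05. With the replicate number as a block, limma called 143 genes, none of them a ZNF gene, and on the recovered reads with the block it called 116 genes, of which 1 was a ZNF gene, ZNF219. Deviations of same-numbered Ribo-seq libraries correlated at 0.811, and the test without the block counts them as spread. Its 0 calls therefore do not show that no gene differed. The labels do not tie equal numbers to a shared culture.

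The largest Ribo-seq difference among genes that moved the same way in both pairs was that of ZNF830, a protein associated with splicing. It was at 4.24 and 2.72 RPKM in control against at 9.88 and 6.52 in KD, and these values did not overlap. Behind them stood 7 and 15 reads in control against 23 and 26 in KD. The log2 difference was 1.03 with an SE of 0.436 (n = 2 libraries per condition, adjusted p = 0.9999, limma). ZNF232, a SCAN protein, was at 3.38 and 5.07 in control against 8.57 and 7.0 in KD. ZNF143, an activator bound at many promoters, was at 5.79 and 3.06 in control against 10.2 and 5.22 in KD. The ZNF232 groups did not overlap, and those of ZNF143 did. ZNF131, with a BTB domain, was at 15.5 and 8.77 in control against 18.4 and 16.8 in KD, and ZNF330, a nucleolar protein, at 18.1 and 5.89 in control against 18.5 and 13.2 in KD.

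On the lower side ZNF219 was at 2.85 and 13.4 RPKM in control against 1.16 and 5.66 in KD. Its replicates differed more than its conditions, and its log2 difference was −0.97 with an SE of 0.860 (n = 2, adjusted p = 0.9999, limma). On recovered reads with the replicate block it was −1.38, with an adjusted p of 0.0147. ZNF688, a KRAB-like gene, was at 2.20 and 2.47 in control against 0.390 and 1.59 in KD. ZNF16 was at 3.07 and 2.30 in control against 1.36 and 1.27 in KD, and ZNF710 at 3.13 and 3.35 in control against 2.06 and 1.39 in KD. ZNF385A, whose RNA-seq value was higher in KD, was at 4.07 and 4.02 in control against 1.73 and 2.86 in KD Ribo-seq. All of these were picked for their difference, and none passed the test without the block.

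An interval for counting error alone, which takes reads as independent, left little room for single genes. The 95% counting interval of the KD to control ratio excluded 1 on the same side in both Ribo-seq pairs in 1 ZNF gene, ZNF770, while 4.18% of 9551 genes at the threshold were so on the higher side and 2.39% on the lower. ZNF770 was at 12.7 and 6.96 RPKM in control against 17.4 and 11.1 in KD, from 69 and 126 reads in control against 133 and 145 in KD. Its 95% intervals for the ratio ran from 1.01 to 1.86 in replicate 1 and from 1.24 to 2.04 in replicate 2. In limma its log2 difference was 0.51 with an SE of 0.495 (n = 2, adjusted p = 0.9999).

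The same direction in RNA-seq, both PARS-seq replicates and both Ribo-seq pairs was seen for 11.1% of the ZNF genes on the higher side (background 13.7%) and for 3.92% on the lower side (background 10%). By the smallest of the 5 differences the higher ones were led by ZNF770, ZNF217, ZNF182, ZNF574 and ZNF131, followed by ZNF48, ZNF639, ZNF232, ZNF394 and ZNF367. ZNF217, an oncogene amplified in breast cancer that recruits corepressors, was at 5.30 and 7.47 RPKM in RNA-seq and at 15.6 and 18.6 in control against 31.8 and 26.9 in KD PARS-seq. Its Ribo-seq values were 7.84 and 5.29 in control against 12.6 and 6.72 in KD, and only these overlapped. The 6 genes on the lower side were ZNF134, ZNF76, ZNF219, ZNF24, ZNF395 and ZNF226. ZNF76, a paralogue of ZNF143, was at 35.2 and 26.9 in RNA-seq and at 7.19 and 14.5 in control against 5.90 and 7.68 in KD Ribo-seq.

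For 10 of the genes a UCSC transcript could be named, through a list of the study that was itself chosen on the structure of these libraries and was held here in a shortened copy. The number 10 therefore reflects that copy. The S1 and V1 tests below use the same libraries, so that they are not independent of the choice of transcripts. For these genes the read starts at each base could be summed. S1 control replicate 1 is given for 4722 transcripts only, and the read starts per 1000000 printed here, with S1 and V1, are relative to the totals on these. Each limma test used the totals over the transcripts listed in every library it took in, which are these 4722 for the S1 test but many more for the V1 test and for the S1 test without control replicate 1. With S1, 2 of the 10 transcripts were called by limma, at an adjusted p under 0.05 over 4721 transcripts (background 20.1%, of which 1.48% higher and 18.6% lower in KD). In numbers these were 70 higher and 878 lower, and with TMM scaling the split was 306 and 438. The median over all transcripts was −0.36, so that a transcript with an unaltered share lies above the typical one. The most covered transcript alone held 26.0% and 39.1% of S1 read starts in control against 48.9% and 46.1% in KD. The share left to all other transcripts was therefore smaller in KD. What part this has in the S1 calls, also that of ZNF410, was not tested on its own.

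The transcript of ZNF764 had 28.2 and 62.3 S1 read starts per 1000000 in control against 65.9 and 121 in KD. The raw numbers were 2979 and 7033 in control against 8447 and 10709 in KD. The conditions did not overlap, and the log2 difference was 1.09 with an SE of 0.278 (n = 2, adjusted p = 0.00126, limma), or 1.45 with TMM scaling. The call was lost without S1 control replicate 1 (log2 difference 0.52, adjusted p = 0.322, limma) and without S1 KD replicate 2 (0.65, adjusted p = 0.411, limma). Leaving out S1 control replicate 1 also widened the test from 4721 to 16403 transcripts and changed the library totals, so that these differ at once. ZNF410 had 30.1 and 21.2 per 1000000 in control against 11.8 and 13.6 in KD, from raw numbers of 3175 and 2390 in control against 1512 and 1204 in KD. Its log2 difference was −0.99 with an SE of 0.337 (n = 2, adjusted p = 0.0217, limma). With TMM scaling it was −0.63 with an adjusted p of 0.0577 (limma), and the call was also lost without S1 control replicate 1 (−0.74, adjusted p = 0.121, limma), S1 KD replicate 1 (−0.89, adjusted p = 0.352) or S1 KD replicate 2 (−1.10, adjusted p = 0.202), at log2 differences of the same sign.

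With V1, 0 of the 10 were called over 17206 transcripts (background 9.64%) and 1, ZNF410, had an unadjusted p under 0.05 in limma, as had 3512 of the 17206. TMM scaling called 0 as well, with 3 at an unadjusted p under 0.05, beside 4412 of the 17206. ZNF764 had 9.85 and 26.5 V1 read starts per 1000000 in control against 13.9 and 38.2 in KD, where the replicates differed more than the conditions. Its log2 difference was 0.51 (adjusted p = 0.379, limma), and it was called without V1 control replicate 2 (1.23, adjusted p = 0.0478, limma) and without V1 KD replicate 1 (1.23, adjusted p = 0.00717, limma). The difference was −0.71 for ZNF410 with V1 (adjusted p = 0.167, limma).

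The share of paired bases among classified bases, DS/(DS + SS), was computed from bases where V1 or S1 read starts exceeded the other by Fisher's exact test against the library totals. The median difference of KD and control over the 10 transcripts was −0.0717, with −0.0807 in replicate 1 and −0.063 in replicate 2. The share was lower in KD in both replicates in 8 of the 10 transcripts, as it was in 74% of 4476 transcripts, whose median was −0.0533. Bases of the 4476 were classified by a binomial test instead. Over the 10 transcripts the difference of KD and control then changed by at most 3.8e-05. For ZNF24 it was 0.57 and 0.598 in control against 0.444 and 0.483 in KD, and for ZNF131 0.646 and 0.593 in control against 0.497 and 0.536 in KD. ZNF580 and ZNF764 were not lower in both, with ZNF580 at 0.357 and 0.425 in control against 0.48 and 0.398 in KD. As the list was chosen on this ratio, these values are no independent evidence of its direction.

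**Figure D5:**
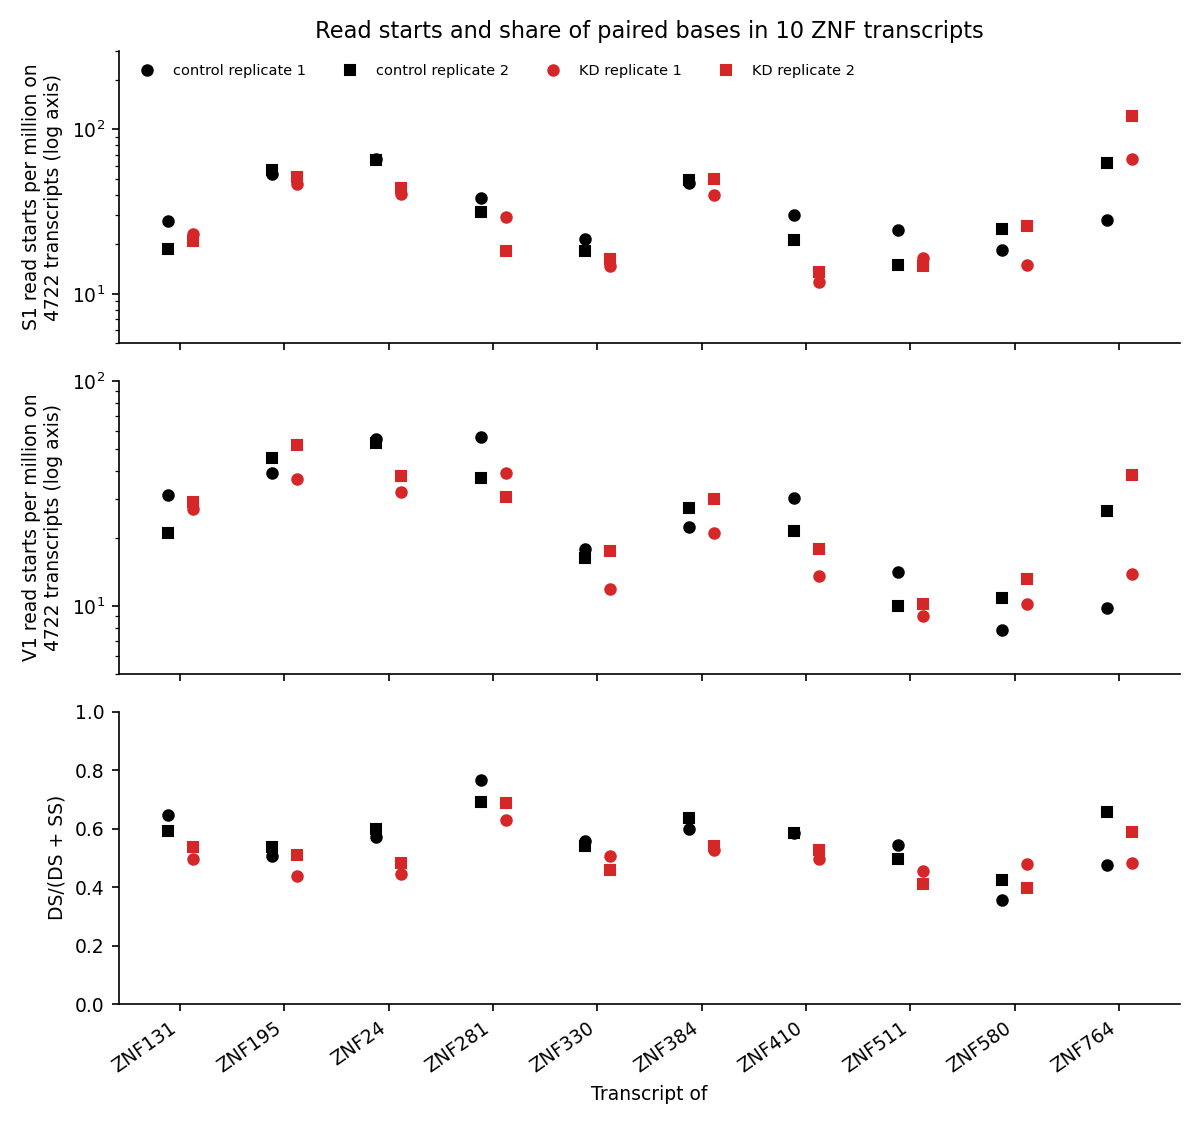
S1 and V1 read starts per 1000000 on the 4722 shared transcripts (log axes) and the share of paired bases DS/(DS + SS) in 10 ZNF transcripts, with control in black, KD in red, replicate 1 as circles and replicate 2 as squares. Both KD points of ZNF764 lie above both control points with S1 only, and the share is lower in KD in both replicates in 8 of 10 transcripts.

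Of the KAP1 corepressor list, 16 of 20 genes were in the table, 12 reached 2 RPKM in control RNA-seq, and 0 of 14 tested were called in Ribo-seq by limma. In PARS-seq 9 of the 12 were higher in KD in both replicates and 2 were lower, beside 44.7% and 37.3% of all genes at that threshold. TRIM28, the KAP1 gene itself, was at 235 and 255.2 RPKM in RNA-seq, at 201 and 112 in control against 232 and 129 in KD Ribo-seq, and at 46.3 and 63.1 in control against 65.4 and 83.2 in KD PARS-seq. Its level in RNA-seq was above that of each ZNF gene. SETDB1 was at 14.6 and 14.4 in RNA-seq, and at 20.5 and 23.5 in control against 22.1 and 27.0 in KD PARS-seq.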

How the data were processed

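Per the submitters' processing notes, the authors used cutadapt and Bowtie2 with hg19/GRCh37. Per their methods, uniquely aligned RNA-seq and Ribo-seq reads were counted on RefSeq transcripts by a command that sets no strand option, and RPKM values were deposited. Reads of overlapping or antisense genes can therefore not be told apart in RPKM. For the read starts the orientation of reads was taken into account. The RPKM of PARS-seq are the authors' means over an S1 and a V1 library. The deposited read starts are counts per base of each UCSC transcript, without normalization.

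Genes were matched by symbol to the annotation, 10 of them under an older symbol. Members, lists and tests were chosen with earlier results of these data known. Log2 values have 1 RPKM added. RPKM are no counts, so Ribo-seq was tested with limma (version 3.58.1, R 4.3.3) and a mean trend on log2(RPKM + 1), filtered at a mean Ribo-seq level of 1 RPKM, over all genes. Read starts were summed per transcript, scaled to 1000000 per library with 0.5 added and tested alike, with at least 10 read starts in 2 libraries and 15 in total. TMM was computed from its definition. The test was run on simulated data first. Where a library was left out, the lone library of its condition was assumed to vary like those of the other condition. To recover reads, library totals were inferred from genes with a single annotated transcript. For each gene the shortest length from 100 to 30000 bases was then sought that made the reads of every library whole, within 0.01. It was found for 99.93% of 13306 genes, and reads and intervals rest on this inferred length. Intervals for KD to control ratios are exact binomial at 95%, given the sum of both libraries, and cover counting error only. An exact permutation of 2 against 2 libraries cannot go below p = 0.333, so none was used.

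Domain classes came from translated GENCODE coding sequences, since proteins of RefSeq were not used here. C2H2 fingers were matched as C, 2 to 4 residues, C, 12 residues, H, 3 to 5 residues, H, KRAB-like domains by their EW, LY and VM residues, and SCAN genes were listed by name. Genes named in the text are the 10 highest in control RNA-seq, the 5 highest and 5 lowest by control Ribo-seq to RNA-seq ratio, by Ribo-seq difference and by PARS-seq difference, up to 10 in each direction among those moved one way in all 5 comparisons, those with a named transcript, and 3 on each side of the threshold. ZNF genes at least 1.5-fold different in RNA-seq were named after their values were seen. Bases were classified in transcripts longer than 100 bases with over 256 read starts and at least 20 classified bases per profile. The calculations used Python 3.11.15, numpy 2.4.6, scipy 1.17.1, pandas 2.3.3 and matplotlib 3.10.9.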

Additional observations from a re-analysis of the deposited data

How the results depend on the processing

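Of 64 alternatives over 12 results, 45 were labelled the same. For a median this meant a shift smaller than the spread between single replicates, even where its sign changed. For RNA-seq, which has no replicates, that spread was an interval for the median over the ZNF genes. For a count or share it meant a shift of at most 1.5-fold. The PARS-seq median of 0.20 (mean of both replicates) became 0.26 with 0.1 RPKM added, 0.16 over ZNF genes at 1 RPKM or more and 0.17 relative to all genes, and ran from 0.18 to 0.21 over single replicates. The Ribo-seq to RNA-seq median was −0.88 in control and −0.22 relative to all genes, and ran from −1.12 to −0.71 over single replicates. In KD it was −0.99, became −1.30 with 0.1 RPKM added, −1.28 at 5 RPKM or more, −0.58 at 1 RPKM or more and −0.42 relative to all genes, and ran from −1.10 to −0.82. The Ribo-seq KD to control median ran from −0.12 to 0.11 over single replicates, so its sign rests on which pair is used. Pairing by replicate number is not given by the labels. Deviations of same-numbered libraries correlated at 0.811 in Ribo-seq, 0.467 with S1 and 0.363 with V1. The replicate block left 0 ZNF genes called in Ribo-seq, 2 with S1 and 0 with V1, while recovered reads with TMM and replicate block, chosen after seeing the data, called 1. Called S1 transcripts were 2, 1 with TMM scaling, and 0 to 2 without single libraries, and called V1 transcripts 0 to 1. Over all transcripts S1 calls numbered 948, 1833 without control replicate 2, 273 without KD replicate 1 and 239 without KD replicate 2. V1 calls numbered 1659 and 534 without control replicate 1. Without Ribo-seq KD replicate 2, 24 genes were called and no ZNF gene. The median difference of DS/(DS + SS), −0.0717, was −0.104 against transcript totals, −0.0945 without the most covered transcript, and −0.0807 to −0.063 by replicate. ZNF genes at least 1.5-fold different in RNA-seq were 5 higher and 0 lower, and 9 and 3 with nothing added to RPKM, chosen after seeing the data. The last shift follows from the added 1, and the cause of the others was not tested. In Ribo-seq the depth of replicate 1, with a median of 10 and 15 reads per ZNF gene, limits every statement on a single gene.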

Other observations

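Related families were set beside the ZNF genes at the same threshold of 2 RPKM. ZBTB genes, which pair zinc fingers with a BTB domain, numbered 17 and were higher in KD in both PARS-seq replicates in 7 (41.2%). ZSCAN and ZKSCAN genes numbered 10, of which 5 (50%) were higher in both, and ZFP genes 6, of which 5 (83.3%) were. Over all genes at the threshold the share was 44.7% and over the 153 ZNF genes 71.2%, and the difference between families was not tested. ZBTB7B, a factor that steers T cell fate, was the most abundant of the related genes, at 89.4 RPKM in control and 115 in KD RNA-seq, with Ribo-seq at 17.9 and 35.3 in control and 11.6 and 19.4 in KD.

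ZFP36, which binds AU-rich elements and speeds the decay of mRNA, was the only ZFP gene at the threshold that was lower in KD in both PARS-seq replicates, at 5.77 and 4.70 RPKM in control and 3.83 and 3.07 in KD. Its RNA-seq values were 7.5 in control and 9.81 in KD. In RNA-seq, both PARS-seq replicates and both Ribo-seq pairs alike, 5 of the 17 ZBTB genes (29.4%) were lower in KD and 1 (5.88%) was higher, where 10% and 13.7% of all genes at the threshold were so, and the difference from all genes was not tested. The 5 lower ones, named after their values were seen, were ZBTB38, ZBTB4, ZBTB5, ZBTB46 and ZBTB7C. ZBTB38, which binds methylated DNA, had RNA-seq at 10.1 and 6.41 and PARS-seq at 11.7 and 9.89 in control and 8.03 and 6.23 in KD. Its Ribo-seq values were 12.8 and 10.4 in control and 10.8 and 8.53 in KD. In limma 0 of 16 ZBTB, 0 of 9 ZSCAN or ZKSCAN and 0 of 5 ZFP genes tested in Ribo-seq were called.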
